A study of Mus musculus with 24 samples.

Results

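The 10 genes described here mark regulatory T cells or take part in costimulation between T cells and other cells. They were Foxp3, Ikzf2, Il2ra, Ccr8, Tnfrsf18, Tnfrsf4, Tnfrsf9, Cd27, Icos and Cd40lg, taken by symbol from a table of 16996 genes, and each of the 10 had a value in all 24 samples. The samples were CD45-positive cells that had been enriched with magnetic beads from EMT6-hHER2 tumors, a clonal mouse breast carcinoma line that carries human HER2, grown in female wild-type Balb/c mice of 10 to 12 weeks. Mice whose tumors had reached about 80 mm3 were left untreated or received trastuzumab (an antibody against HER2) at 20 mg/kg, T-DM1 (trastuzumab linked to a tubulin-binding maytansinoid) at 15 mg/kg or T-PNU (trastuzumab linked to an anthracycline-derived toxin) at 1 mg/kg, and tumors were taken on day 10, with 6 mice in each group. Because the doses differed, agent and dose cannot be told apart in these comparisons. Per the study, T-PNU tumors were smaller at harvest than at treatment, while trastuzumab and T-DM1 did not prevent growth. Treatment and tumor size at harvest therefore cannot be told apart. The sample labels hold a number that was lower for every untreated sample than for any treated sample. What these numbers stand for, and whether they mark separate experiments, is not stated. If they do, experiment and treatment cannot be told apart in comparisons with untreated tumors. Values are normalized expression on the log2 scale, on which a difference of 1 is a 2-fold difference, and read depth per sample is unknown because no counts were used.

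Regulatory T cells are CD4+ T cells that restrain other lymphocytes, and the transcription factor Foxp3 sets their identity. They take up IL-2 through a high-affinity receptor that contains the Il2ra chain, and inside tumors they often carry the chemokine receptor Ccr8 together with receptors of the TNF family such as Tnfrsf18 (GITR) and Tnfrsf4 (OX40). Several of these receptors also appear on activated CD4+ and CD8+ T cells, where ligands on antigen-presenting cells engage them after antigen recognition, so most of the 10 genes are not exclusive to regulatory T cells.

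In the mouse assembly GRCm38, with GENCODE annotation, Tnfrsf4 (chr4:156013843-156016612) and Tnfrsf18 (chr4:156026164-156028895) lay on the same strand with 9.55 kb between them, and Tnfrsf9 (chr4:150914562-150946102) lay on the same chromosome. Foxp3 (chrX:7573644-7595245) and Cd40lg (chrX:57212143-57224042) were X-linked. Ikzf2 (chr1:69531214-69687245) and Icos (chr1:60977927-61000320) were on chromosome 1, Il2ra (chr2:11642807-11693193) on chromosome 2, Cd27 (chr6:125232622-125237010) on chromosome 6 and Ccr8 (chr9:120092114-120094906) on chromosome 9. All 10 are annotated as protein-coding.

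RefSeq promoter windows on GRCm38.p6 were matched for 7 of the 10 genes and not for Ikzf2, Icos or Cd40lg. The 250 bases before the annotated start are printed for 3 genes with contrasting behavior in these samples: Cd27, whose level varied most between samples, Il2ra, which differed between T-PNU and T-DM1, and Tnfrsf9, whose level varied least. None of these 3 windows overlapped an annotated exon, and capitals mark matches to the motifs searched. The windows were chr6:125237028-125237277 on the minus strand, chr2:11642542-11642791 on the plus strand and chr4:150919905-150920154 on the plus strand, the last of them within the longer Tnfrsf9 gene model.

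Cd27: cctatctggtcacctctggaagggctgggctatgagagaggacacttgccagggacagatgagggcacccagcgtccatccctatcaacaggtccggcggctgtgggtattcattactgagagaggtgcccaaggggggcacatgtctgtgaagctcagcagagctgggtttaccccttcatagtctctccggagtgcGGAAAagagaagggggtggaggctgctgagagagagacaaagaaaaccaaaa

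Il2ra: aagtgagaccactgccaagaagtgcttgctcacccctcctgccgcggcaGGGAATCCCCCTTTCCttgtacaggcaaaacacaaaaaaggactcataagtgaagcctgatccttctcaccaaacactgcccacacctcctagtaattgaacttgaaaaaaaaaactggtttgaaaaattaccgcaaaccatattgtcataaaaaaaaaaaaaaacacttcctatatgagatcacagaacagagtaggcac

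Tnfrsf9: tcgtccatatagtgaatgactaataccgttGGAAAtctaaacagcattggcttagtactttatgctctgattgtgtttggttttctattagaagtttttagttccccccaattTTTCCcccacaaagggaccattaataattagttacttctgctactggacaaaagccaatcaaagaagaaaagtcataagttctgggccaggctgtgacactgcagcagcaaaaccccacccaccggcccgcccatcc

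Both strands were searched for the NFAT core GGAAA, the AP-1 site TGANTCA, the cyclic AMP response element TGACGTCA, the TATA box TATAAA and the κB consensus. The NFAT core was found in 6 of the 7 windows and in 55.6% of the 27025 promoters searched in the same way. A κB match was found in 1 of the 7, Il2ra, where 2 overlapping matches on opposite strands adjoined an NFAT core, and in 3.74% of all promoters. A TATA box was found in 1 of the 7, Foxp3, ending 26 bases before the start, and in 13% of all promoters. By GENCODE annotation all 250 bases of the Foxp3 window were exon, and the Tnfrsf4, Tnfrsf18 and Ccr8 windows held 166, 158 and 19 exon bases. Neither the AP-1 site (6.85% of all promoters) nor the cyclic AMP response element (1.6%) was found in any of the 7. These matches are descriptions of sequence and do not show binding.

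A few untreated or trastuzumab samples have to be named before the values, since several results turned on them. The study's heatmaps label 20 of the 24 samples, without untreated replicates 2 and 3 and trastuzumab replicates 1 and 6, and its methods state that possible outliers were sought from the similarity of expression without naming any. Ptprc, the gene of CD45, was 15.23 and 15.24 in those untreated samples against 14.27 to 14.52 in the other untreated samples, and 15.08 and 14.91 in those trastuzumab samples against 14.24 to 14.83 in the other trastuzumab samples. Replicate numbers here were given in accession order and pair no samples. The 4 samples left out were therefore the 2 of each of those groups with the highest Ptprc. No T-PNU or T-DM1 sample was left out. With group means taken out, Pearson's r with Ptprc was 0.06 for Tnfrsf9. For the other genes it ran from 0.64 (Ccr8) to 0.91 (Icos). Leaving these samples out therefore tends to lower those genes in the untreated and trastuzumab groups only. All 24 samples were used for the main values and the 20 are given beside them. A pan-T level, the mean log2 level of 10 T cell genes that include Cd3d, Cd3e, Cd3g, Cd247, Cd2, Cd5, Cd6, Lck and Lat, ran from 8.22 to 11.86 over the 24 samples. Within T-PNU it was 9.21 and 9.53 in replicates 1 and 3, and 10.65 to 11.86 in the other T-PNU samples. The study describes 4 T-PNU samples as high-responding and marks others as low-responding. High and low responders were not separated here.

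Foxp3, the lineage factor of regulatory T cells, ran from 7.02 (median 7.90) to 9.07 in untreated tumors and from 7.16 (median 8.16) to 9.23 after trastuzumab. It ran from 7.32 (median 8.18) to 9.03 after T-DM1 and from 7.99 (median 8.94) to 9.46 after T-PNU. The T-PNU median was highest, but 1 of 6 T-PNU samples lay above all untreated samples and the groups overlapped. Within T-PNU, Foxp3 was 7.99 and 8.27 in replicates 1 and 3 and 8.93 to 9.46 in the other samples. Ikzf2 (Helios), a zinc-finger factor found in many regulatory T cells, ran from 8.72 (median 8.81) to 9.53 in untreated tumors, 8.44 (median 9.02) to 9.45 after trastuzumab, 8.46 (median 8.76) to 8.95 after T-DM1 and 8.89 (median 9.28) to 9.63 after T-PNU. In 5 of 6 T-PNU samples Ikzf2 was above all T-DM1 samples.

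Il2ra, the alpha chain of the IL-2 receptor, ran from 9.58 (median 9.73) to 10.25 in untreated tumors and from 9.42 (median 9.90) to 10.48 after trastuzumab. It ran from 9.50 (median 9.59) to 9.86 after T-DM1 and from 9.99 (median 10.17) to 10.48 after T-PNU. The T-PNU and T-DM1 samples did not overlap for Il2ra, whereas no T-PNU sample lay above all trastuzumab samples. How many of all genes separated T-PNU from T-DM1 in this way was not counted. Ccr8, a chemokine receptor of tumor-resident regulatory T cells, ran from 5.55 (median 5.90) to 6.42 in untreated tumors, 5.64 (median 6.10) to 6.76 after trastuzumab, 5.36 (median 5.97) to 6.44 after T-DM1 and 6.08 (median 6.43) to 6.78 after T-PNU. The groups overlapped, with 3 of 6 T-PNU samples above all T-DM1 samples.

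Among the TNF receptors, Tnfrsf18 (GITR), which lowers the threshold for T cell activation, ran from 7.47 (median 8.50) to 9.78 in untreated tumors, 7.79 (median 8.56) to 9.98 after trastuzumab, 7.66 (median 8.77) to 9.79 after T-DM1 and 8.55 (median 9.37) to 10.30 after T-PNU. Its neighbor Tnfrsf4 (OX40), a survival receptor of activated T cells, ran from 7.42 (median 8.23) to 9.55, 7.58 (median 8.36) to 9.45, 7.61 (median 8.42) to 9.05 and 8.08 (median 9.05) to 9.66 in the same order of groups. Both genes were lowest in untreated replicate 1 and highest in T-PNU replicate 5, and all groups overlapped. Cd27, a receptor of resting and memory T cells, ran from 7.98 (median 9.57) to 11.53 in untreated tumors, 8.20 (median 9.31) to 11.34 after trastuzumab, 8.24 (median 9.74) to 11.19 after T-DM1 and 9.19 (median 10.88) to 12.00 after T-PNU. Cd27 had the widest range of the 10 genes, 16.2-fold from the lowest to the highest of 24 samples.

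Tnfrsf9 (4-1BB), a receptor of recently activated T and NK cells, behaved differently: it ran from 11.31 (median 11.42) to 11.72 in untreated tumors, 11.34 (median 11.56) to 11.76 after trastuzumab, 11.50 (median 11.63) to 11.72 after T-DM1 and 11.43 (median 11.62) to 11.75 after T-PNU. Its whole range over 24 samples was 1.36-fold, and its SD stood at the 15.2 percentile of all genes, against the 76.5 to 99.4 percentiles for the other 9. Icos, a CD28-family receptor of activated and regulatory T cells, ran from 9.93 (median 10.68) to 12.27 in untreated tumors, 9.95 (median 10.85) to 11.80 after trastuzumab, 9.98 (median 10.60) to 11.13 after T-DM1 and 10.84 (median 11.70) to 12.41 after T-PNU. For Icos, 4 of 6 T-PNU samples lay above all T-DM1 samples. Cd40lg, the ligand by which helper T cells license CD40-bearing cells, ran from 4.10 (median 4.76) to 7.53, 4.14 (median 4.68) to 6.42, 4.23 (median 5.39) to 6.34 and 4.33 (median 5.88) to 7.47 in the same order. The groups overlapped, and the highest untreated sample exceeded all T-PNU samples.

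**Figure D1:**
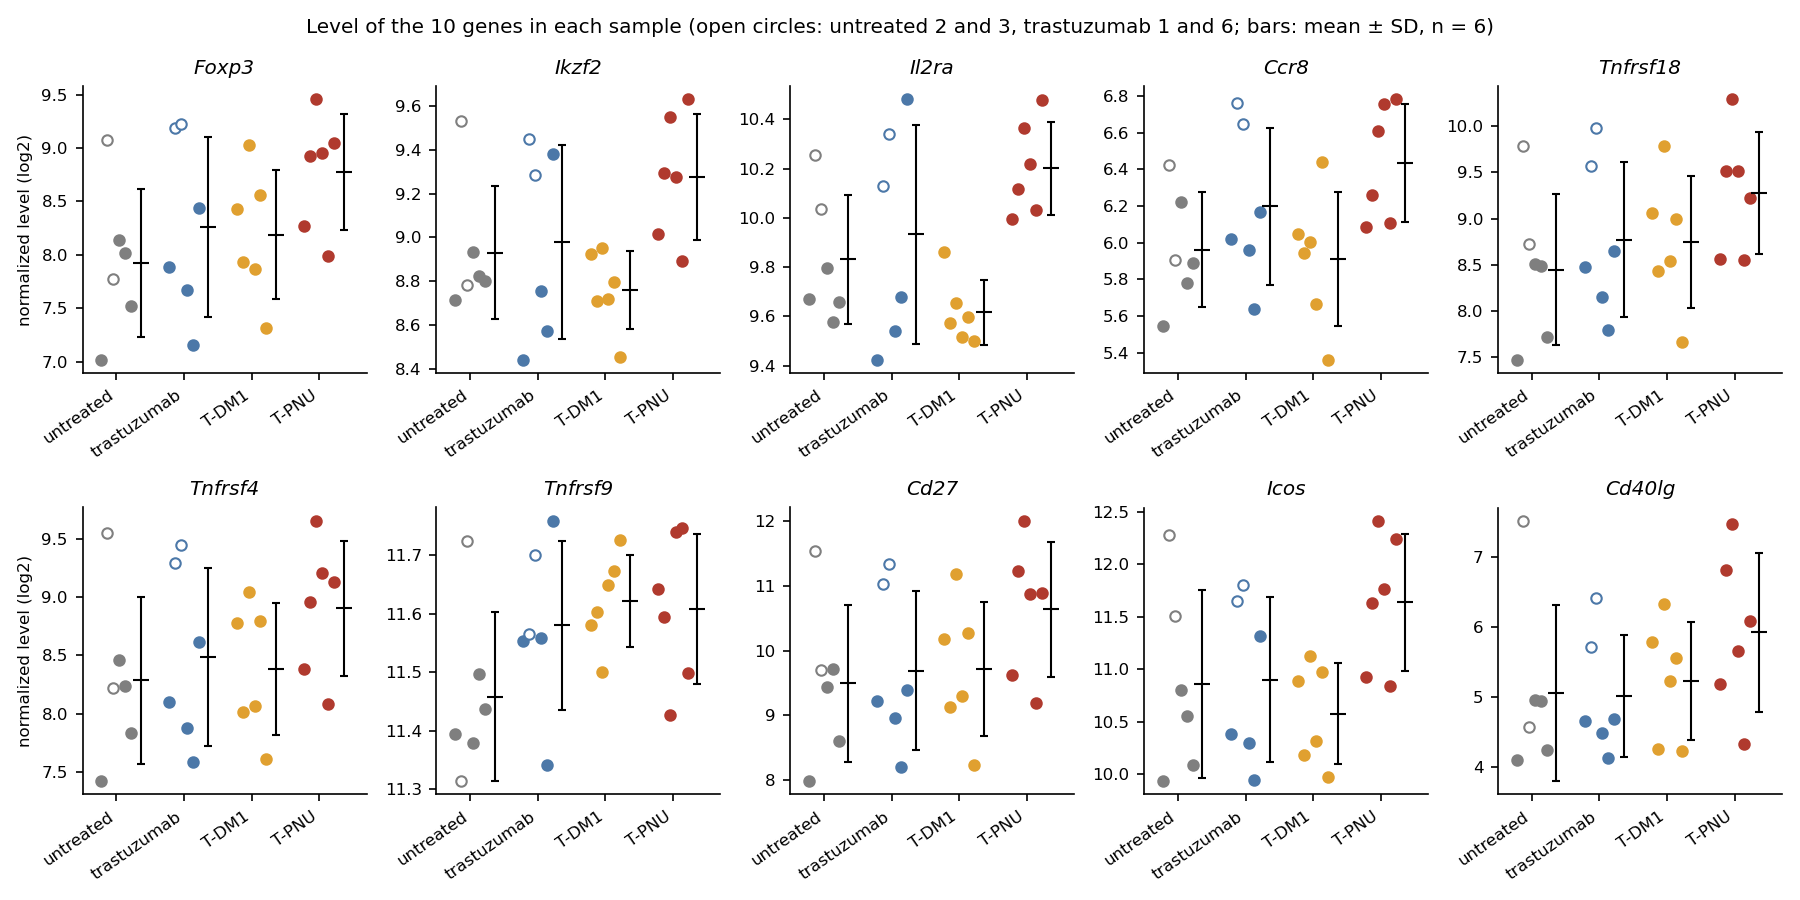
Normalized level (log2, vertical axis, a separate scale in each panel) of the 10 genes in each of 24 samples by group; bars give the mean ± SD of 6 samples, and open circles mark untreated replicates 2 and 3 and trastuzumab replicates 1 and 6. T-PNU samples tended to the upper part of each panel except for Tnfrsf9, and of the 10 genes Il2ra alone separated all T-PNU from all T-DM1 samples. Ptprc separated these samples too, and the share of all genes that did so was not counted.

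By the order of group means, T-PNU was highest for 9 of the 10 genes and T-DM1 was highest for Tnfrsf9. The means ± SD (n = 6) were 8.77 ± 0.54 for T-PNU, 8.26 ± 0.84 for trastuzumab, 8.19 ± 0.60 for T-DM1 and 7.93 ± 0.69 for untreated tumors in the case of Foxp3. Neighbors in that order did not differ beyond their spread for Foxp3. For Il2ra the order was T-PNU 10.20 ± 0.19, trastuzumab 9.93 ± 0.44, untreated 9.83 ± 0.26 and T-DM1 9.62 ± 0.13, and of its pairs of groups the first and the last differed by limma.

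The comparison of T-PNU with untreated tumors sets the conjugate against no treatment. Tested by limma over all 16996 genes with Benjamini-Hochberg adjustment, 0 of the 10 genes passed an adjusted p of 0.05, and 0.188% of all genes did. All 10 differences were positive, as were 51.5% of those of all genes, with a median of 0.70 (all genes, 0.01). Most of the 10 genes rose and fell together, so these signs are not 10 separate results. By limma, 3 of the 10 had an unadjusted p under 0.05, as did 24.8% of all genes. Cd27 differed by 1.14 (SE 0.61, adjusted p = 0.241), Cd40lg by 0.87 (SE 0.56, adjusted p = 0.32) and Foxp3 by 0.85 (SE 0.37, adjusted p = 0.161), while Tnfrsf9 differed by 0.15 (SE 0.08). Among the 20 samples of the heatmaps, 9 of the 10 genes were called higher after T-PNU, where 15.3% of all genes were called higher. There Icos was 2.45-fold higher (log2 difference 1.29, SE 0.32, adjusted p = 0.00887), Foxp3 2.14-fold (1.10, SE 0.33, adjusted p = 0.0195) and Cd27 3.25-fold (1.70, SE 0.54, adjusted p = 0.0247). Tnfrsf9 did not pass in that set (adjusted p = 0.0763). The result for untreated tumors therefore turned on 4 samples, and leaving out any 1 of the 24 samples gave 0 calls among the 10 genes. Only untreated and trastuzumab samples with high Ptprc are absent from the 20, so the larger T-PNU differences there follow in part from that choice.

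Against trastuzumab alone, 0 of the 10 genes passed in 24 samples by limma, none had an unadjusted p under 0.05, and 0.00588% of all genes passed. Again all 10 differences were positive, from 0.03 for Tnfrsf9 to 0.95 (SE 0.61, adjusted p = 0.365) for Cd27. Their median was 0.46, and of all genes 52% were positive with a median of 0.01. In the 20 samples 8 of the 10 were called higher, beside 14.6% of all genes. Cd27 was 3.23-fold higher (adjusted p = 0.0291) and Icos 2.22-fold higher (adjusted p = 0.0186) in that set, while Ccr8 (adjusted p = 0.0643) and Tnfrsf9 (adjusted p = 0.6) did not pass.

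Against T-DM1, the other conjugate, 3 of the 10 genes were called higher after T-PNU in 24 samples and none lower. In this comparison 29.8% of all genes passed in either direction and 12.4% were called higher. Il2ra rose 1.5-fold (log2 difference 0.58, SE 0.16, adjusted p = 0.00915), with 6 of 6 T-PNU samples above all T-DM1 samples. Ptprc separated these groups as well, and the share of all genes that did so was not counted. Ikzf2 rose 1.43-fold (0.52, SE 0.18, adjusted p = 0.0306) and Icos rose 2.08-fold (1.06, SE 0.39, adjusted p = 0.0428). Ccr8 differed by 0.52 (SE 0.20, adjusted p = 0.0518) and Foxp3 by 0.58 (SE 0.37, adjusted p = 0.224), so that Foxp3 had the same estimated difference as Il2ra with a larger error. Tnfrsf9 differed by -0.01 (SE 0.08, adjusted p = 0.901), with a 95% interval from -0.17 to 0.14. In the 20 samples Ccr8 was added, making 4 of the 10 called higher beside 19.8% of all genes.

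The Il2ra call was kept when each of the 24 samples was left out in turn. The Ikzf2 call was lost without T-DM1 replicate 2, 4 or 6 or T-PNU replicate 2 or 5, with adjusted p between 0.0546 and 0.0856. The Icos call was lost without T-DM1 replicate 2, 4 or 6 or T-PNU replicate 2, 4, 5 or 6, with adjusted p between 0.064 and 0.105. Ccr8 passed in 8 of the 24, with adjusted p from 0.0289 to 0.0492: without untreated replicate 1 or 2, trastuzumab replicate 1, 3 or 6, T-DM1 replicate 5 or T-PNU replicate 1 or 3.

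**Figure D2:**
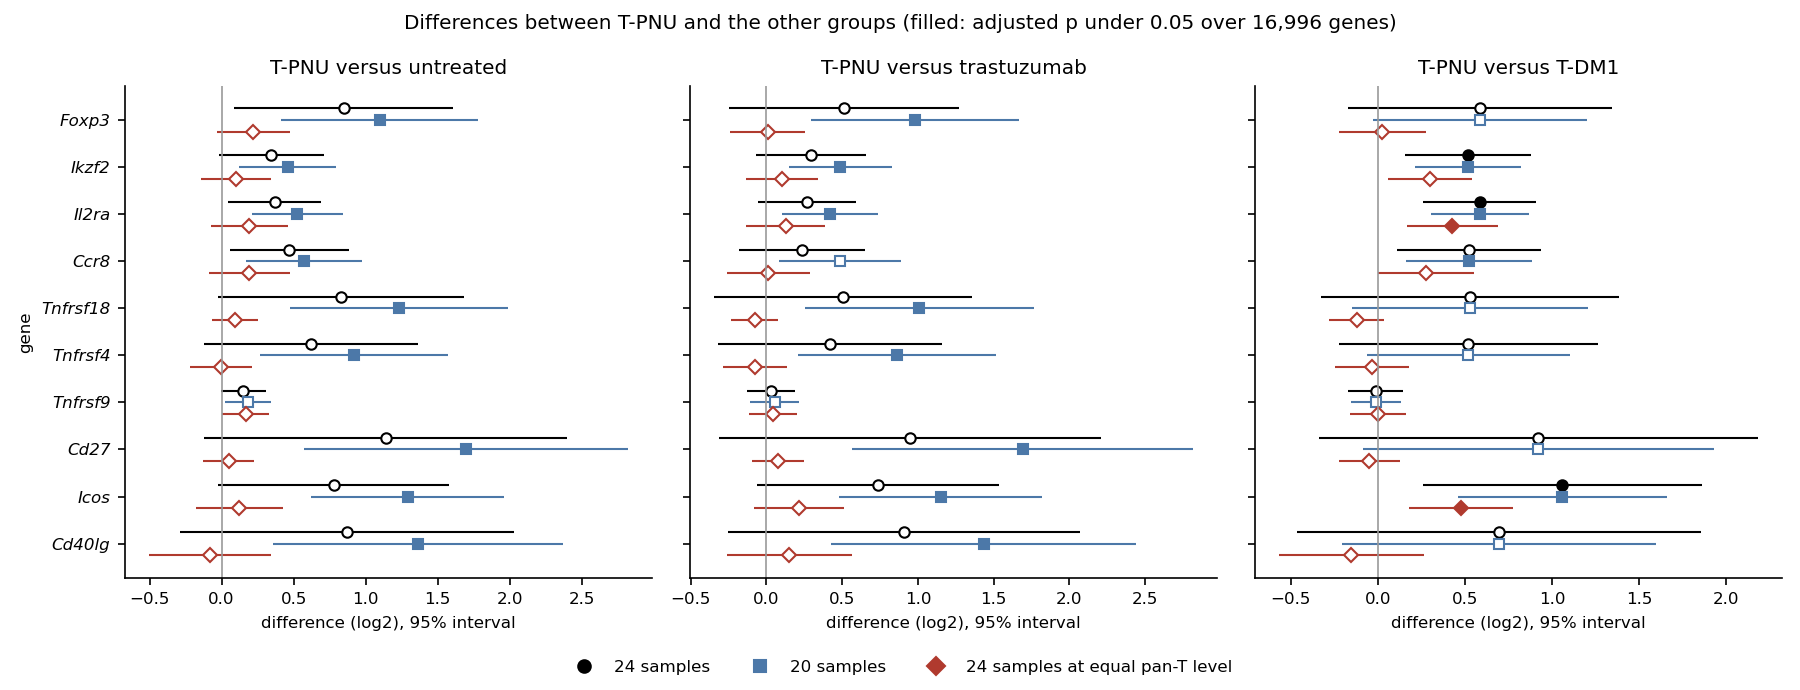
Log2 difference of T-PNU from each other group (horizontal axis, with 95% intervals) for the 10 genes, in 24 samples, in the 20 samples of the heatmaps and in 24 samples at an equal pan-T level; filled symbols passed an adjusted p of 0.05 over all genes. In 24 samples 3 filled symbols appear against T-DM1 and none against the other groups, whereas 9 and 8 appear against untreated and trastuzumab in 20 samples.

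In the comparisons without T-PNU, 0 of the 10 genes passed in 24 samples by limma. For T-DM1 against untreated tumors the differences ran from -0.28 (Icos) to 0.30 (Tnfrsf18), 1 of the 10 had an unadjusted p under 0.05 (23.4% of all genes), and 6.27% of all genes passed. For trastuzumab against untreated tumors they ran from -0.04 (Cd40lg) to 0.34 (Foxp3), none had an unadjusted p under 0.05, and 0.259% of all genes passed. For T-DM1 against trastuzumab they ran from -0.32 (Icos) to 0.21 (Cd40lg), none had an unadjusted p under 0.05, and 0.647% of all genes passed.

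The levels of 9 of the 10 genes rose and fell with the pan-T level of the sample. In bulk samples fewer cells of a type and less RNA per cell cannot be told apart. With the group means taken out, Pearson's r with the pan-T level over 24 samples was 0.99 for Cd27, 0.99 for Tnfrsf18, 0.97 for Tnfrsf4, 0.96 for Foxp3, 0.94 for Cd40lg and 0.94 for Icos. It was lower for Ccr8 (0.80), Ikzf2 (0.79) and Il2ra (0.64), and -0.14 for Tnfrsf9. Over the 20 samples it was 0.39 for Il2ra, 0.68 for Ikzf2, 0.71 for Ccr8 and -0.31 for Tnfrsf9, and 0.89 or more for the other 6. These correlations describe libraries that share 1 normalization, and the lowest and highest samples set much of the range. Without group centering, Spearman's rho was 0.99 for Cd27, 0.93 for Foxp3 and 0.65 for Il2ra, and without T-PNU replicate 5 and untreated replicate 2, the samples farthest from the median pan-T level, r was 0.99, 0.96 and 0.59. For Tnfrsf9, r without group centering was -0.02 over 24 samples and 0.30 without those 2.

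The genes also differed in how steeply they followed the pan-T level. A rise of 1 in the pan-T level went with a rise of 1.10 in Cd27, 0.96 in Cd40lg, 0.74 in Tnfrsf18, 0.66 in Icos and 0.63 in both Foxp3 and Tnfrsf4. The slope was 0.28 for Ccr8, 0.25 for Ikzf2, 0.18 for Il2ra (0.12 in the 20 samples) and -0.02 for Tnfrsf9. Foxp3 thus rose less than the pan-T transcripts in samples with a high pan-T level, while Cd27 rose slightly more. Among the 36 pairs of genes without Tnfrsf9 the group-centered r ran from 0.58 to 0.99 with a median of 0.87, and in the 9 pairs with Tnfrsf9 it ran from -0.34 to 0.15.

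**Figure D3:**
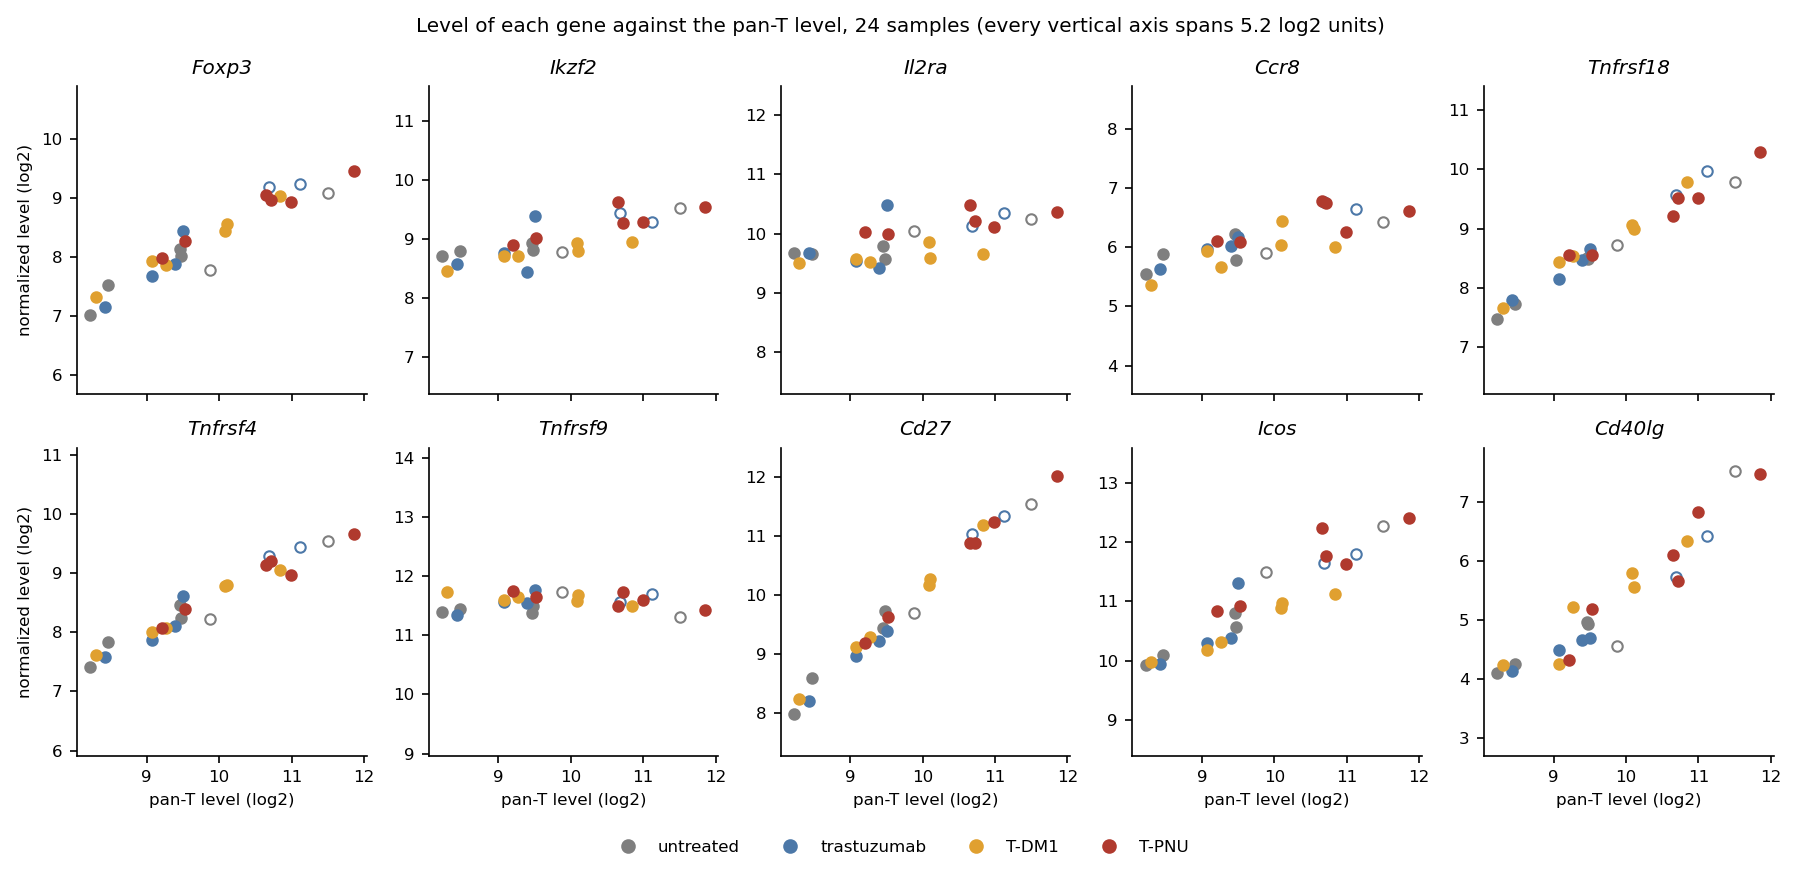
Level of each of the 10 genes (log2, vertical axis) against the pan-T level (mean log2 level of 10 T cell genes, horizontal axis) in 24 samples, colored by group, with untreated replicates 2 and 3 and trastuzumab replicates 1 and 6 as open circles. Cd27 and Tnfrsf4 lay close to 1 line (group-centered r 0.99 and 0.97), Tnfrsf9 had a slope near 0, and T-PNU samples tended to lie above T-DM1 samples at a like pan-T level for Il2ra and Icos.

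The pan-T level was 9.50 ± 1.17 in untreated tumors, 9.70 ± 1.01 after trastuzumab, 9.61 ± 0.91 after T-DM1 and 10.49 ± 0.98 after T-PNU (SD, n = 6). T-PNU and untreated tumors differed by 0.99 (two-sided exact permutation p = 0.136, adjusted over 6 comparisons 0.409), and in the 20 samples by 1.59 (exact p = 0.0238, adjusted 0.0857). With the pan-T level as a covariate in limma, 0 of the 10 genes passed between T-PNU and untreated tumors, 1 had an unadjusted p under 0.05, and 0.00588% of all genes passed. The largest remaining difference was 0.22 for Foxp3 (SE 0.12, adjusted p = 0.344), and Cd27 fell to 0.05 (SE 0.08). In the 20 samples the covariate left 0 of the 9 calls by limma (1 gene of the 10 with an unadjusted p under 0.05), beside 2.05% of all genes. Against trastuzumab in the 20 samples it likewise left 0 of the 8 calls by limma (none of the 10 with an unadjusted p under 0.05), beside 0.247% of all genes.

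Against T-DM1 the same covariate left 2 of the 10 genes called higher, where 28.2% of all genes passed in either direction. Il2ra differed by 0.43 (SE 0.13, adjusted p = 0.0161) and Icos by 0.48 (SE 0.14, adjusted p = 0.0173). Each of these calls was lost in 1 of 24 fits, without T-DM1 replicate 3 (adjusted p = 0.0661 for Il2ra and 0.0761 for Icos). Ikzf2 differed by 0.30 (SE 0.12, adjusted p = 0.0562), and in the 20 samples Ikzf2 joined Il2ra and Icos (adjusted p = 0.0424), beside 34.5% of all genes. Foxp3, Cd27 and Tnfrsf4 were 0.03, -0.05 and -0.03 apart at an equal pan-T level, none past the threshold. Between T-DM1 and untreated tumors 1 of the 10 genes was called, Tnfrsf18, higher by 0.22 (SE 0.07, adjusted p = 0.0394), where 18.3% of all genes passed. That call was kept in 16 of 24 fits and lost without untreated replicate 1, 2, 3 or 6 or T-DM1 replicate 1, 2, 3 or 4 (adjusted p up to 0.108). Over the 20 samples, 0 of the 10 passed between T-DM1 and untreated tumors by limma (2 with an unadjusted p under 0.05, and 0.217 adjusted for Tnfrsf18), beside 2.21% of all genes.

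The CD45 transcript and transcripts of other cell types moved with the T-PNU and T-DM1 groups too. Ptprc was 14.75 to 15.52 after T-PNU and 14.01 to 14.61 after T-DM1, without overlap (log2 difference 0.76, SE 0.19). Of 8 markers of tumor and stromal cells (Krt8, Krt18, Epcam, Col1a1, Col1a2, Col3a1, Pdgfrb and Cdh5), 5 were called lower and 2 higher after T-PNU than after T-DM1, and their mean level was 10.62 to 11.71 after T-PNU and 11.87 to 12.19 after T-DM1, also without overlap. Their summed level was 14.69 to 16.20 after T-PNU, 16.66 to 17.20 after T-DM1, 15.21 to 16.51 in untreated tumors and 15.90 to 16.73 after trastuzumab, and no marker was near 0, the lowest value being 6.34 for Epcam. Krt8, an epithelial keratin, ran from 11.69 to 13.77 although the cells had been enriched for CD45. In the lists of other immune cells, 5 of 8 markers of macrophages and monocytes (median difference 0.73), 3 of 3 measured NK cell markers (0.71) and 4 of 6 markers shared by effector CD8 T and NK cells (0.75) were called higher after T-PNU than after T-DM1, as were 2 of 6 mast cell markers, 2 of 6 dendritic cell markers (1 lower) and 1 of 6 neutrophil markers. None of 8 B cell, 6 naive T cell or 6 proliferation genes passed by limma (0, 1 and 1 with an unadjusted p under 0.05, and median differences of 1.02, 0.76 and -0.23). The summed NK cell level was 8.20 to 8.88 after T-PNU and 7.58 to 8.15 after T-DM1, without overlap, and ran from 7.47 to 8.90 in untreated tumors and from 7.67 to 8.93 after trastuzumab. The part of these cell types in the Il2ra, Ikzf2 and Icos differences was not tested. Il2ra followed Ptprc with a group-centered r of 0.82. With Ptprc as a covariate, 0 of the 10 genes passed between T-PNU and T-DM1 by limma (2 with an unadjusted p under 0.05, Tnfrsf18 and Tnfrsf4, both with negative differences), beside 0% of all genes (2612 genes with an unadjusted p under 0.05). Il2ra then differed by 0.06 (SE 0.12, adjusted p = 0.84), Icos by -0.42 (SE 0.22, adjusted p = 0.354) and Ikzf2 by -0.02 (SE 0.16, adjusted p = 0.974). Since Ptprc itself separated these groups, the effect of treatment and the share of CD45-positive RNA cannot be told apart here.

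**Figure D4:**
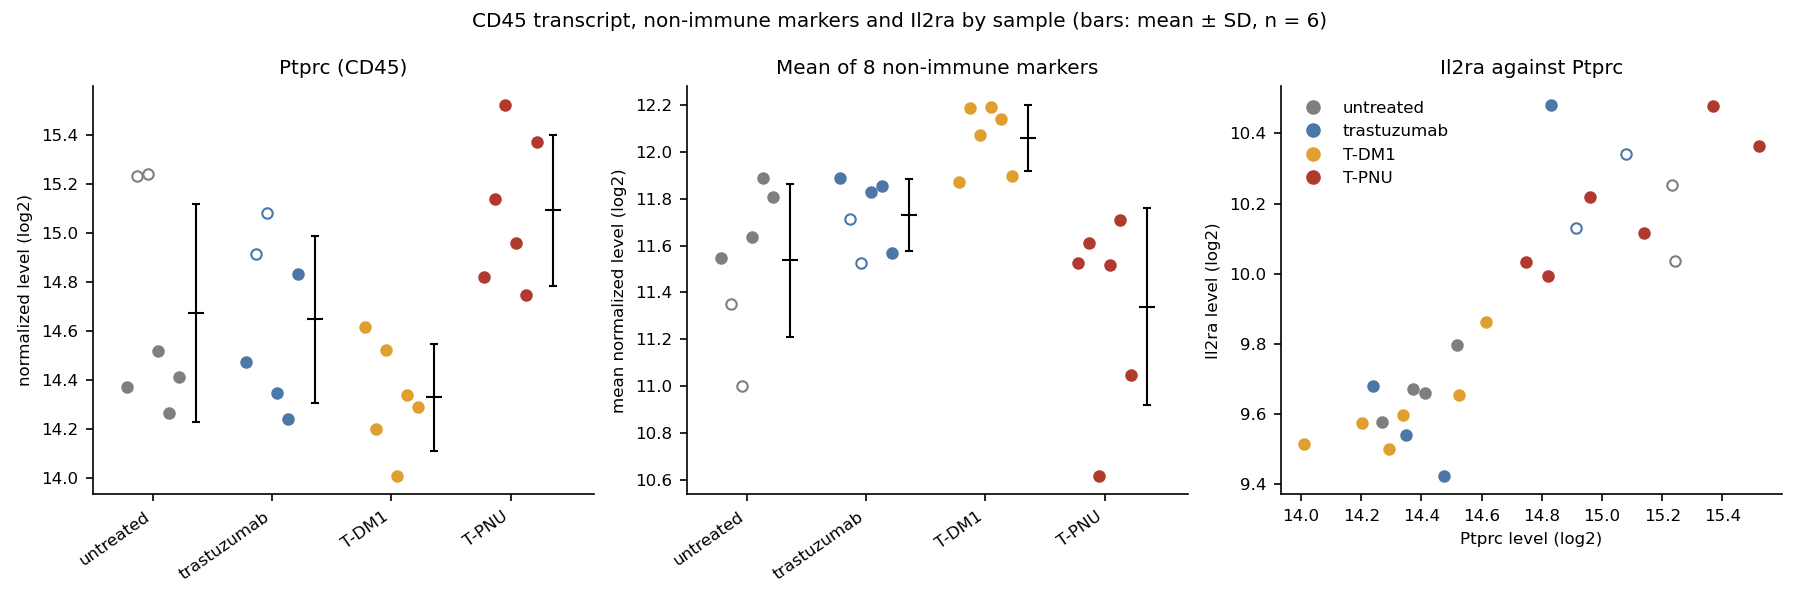
Level of Ptprc and mean level of 8 non-immune markers by sample and group (log2, with mean ± SD of 6 samples), and Il2ra against Ptprc in 24 samples. T-PNU and T-DM1 samples did not overlap in any of the 3 quantities.

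The 10 genes were also compared with all others for likeness of pattern, as group-centered r over 24 samples. Of all genes, Tnfrsf4 was the closest to Foxp3 (r = 0.99) and Cd27 the third (0.97), with Tnfrsf18 at rank 24. Outside the gene lists used here, the 5 closest to Foxp3 were Gimap8 (0.97), Jakmip1 (0.97), Ppp1r16b (0.97), Myb (0.97) and Gimap3 (0.97). Foxp3 was followed much less closely by Ikzf2 (0.87, rank 719) and Il2ra (0.69, rank 2684). The 5 closest to Il2ra were Ric1 (0.92), Zfp951 (0.90), Pgap1 (0.88), Tubgcp5 (0.88) and Fbxo38 (0.88), and the closest of the other 9 genes was Ikzf2 (0.87, rank 11). Other cell types moved in the same samples: a B cell list of 8 genes correlated with Foxp3 at 0.93 and with Cd27 at 0.92, and a naive T cell list of 6 genes with Cd27 at 0.98. Tnfrsf9 instead correlated with NK cell markers (0.74), dendritic cell markers (0.72) and mast cell markers (0.68). Whether those cells contributed to its level was not tested.

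Related genes of the same pathways were examined by count. In the comparison of T-PNU with untreated tumors, and in that with trastuzumab, 0 of the 79 genes measured in the pathway lists passed by limma (22 and 8 of them had an unadjusted p under 0.05, beside 24.8% and 19.5% of all genes). Over the 20 samples, 42 of the 79 were called higher and 3 lower against untreated tumors, beside 15.3% and 15.7% of all genes, and 31 higher and 5 lower against trastuzumab, beside 14.6% and 13.5%. Those called higher against untreated tumors were 10 of 10 pan-T genes, 3 of 3 coreceptor genes, 7 of 14 transcription factors, 6 of 9 IL-2 receptor and signaling genes, 10 of 16 effector molecules, 3 of 7 chemokines and receptors, 2 of 13 TRAF and NF-κB genes and 1 of 7 ligands. Against trastuzumab they included 9 of 10 pan-T genes, 6 of 14 transcription factors and 5 of 9 IL-2 receptor and signaling genes. In 24 samples, for T-PNU against untreated tumors, the 10 pan-T genes had differences of 0.81 (Lck) or more, and the 3 coreceptor genes ran from 0.81 (Cd8a) to 1.08 (Cd4). Their medians were 0.97 and 0.93, above the 0.70 of the 10 genes described here. The 7 measured ligands of costimulatory receptors had differences from -0.16 (Icosl) to 0.44 (Tnfsf4). The 14 regulatory T cell transcription factors ran from -0.02 (Cbfb) to 1.31 (Satb1) with a median of 0.49, and the 16 effector molecules from -0.59 (Il1rl1) to 0.75 (Tigit) with a median of 0.43. The 9 IL-2 receptor and signaling genes ran from 0.02 (Cish) to 0.88 (Il2rb), the 7 chemokines and receptors from -0.20 (Ccl17) to 0.78 (Cxcr3), and the 13 TRAF and NF-κB genes from 0.01 (Traf2) to 0.56 (Map3k14).

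Against T-DM1, 18 of the 79 genes were called in either direction in 24 samples, beside the 29.8% of all genes. With both directions pooled, the lists thus held no larger share of calls than the table as a whole. Most of the calls in the lists were higher after T-PNU, whereas of all genes 2111 were called higher and 2962 lower. Of the 16 effector molecules, 4 were called higher after T-PNU and 2 lower. The inhibitory receptor Tigit rose by 0.80 (adjusted p = 0.00962), the ectonucleotidase Entpd1 (CD39) by 0.50, the secreted suppressor Fgl2 by 0.76 and the lectin receptor Klrg1 by 0.42, while the IL-33 receptor Il1rl1 fell by 1.18 (adjusted p = 0.00631) and the growth factor Areg fell by 0.77. Of the ligands, 2 of 7 were called higher, Tnfsf18 (the ligand of GITR) by 0.32 and Cd86 by 0.40. Of the transcription factors, 1 of 14 was called, Maf, higher by 0.76, and of the IL-2 receptor and signaling genes 1 of 9 was called, the common gamma chain Il2rg, higher by 0.59. Among chemokines and receptors 2 of 7 were called higher, among them Ccl8 (a CCR8 ligand in mice) by 1.23, and Ccl17 fell by 0.43. In the TRAF and NF-κB list 4 of 13 were called higher, Birc2 by 0.50, Rel by 0.45, Birc3 by 0.37 and Traf6 by 0.22, and Nfkb2 fell by 0.27. None of the 10 pan-T or 3 coreceptor genes passed against T-DM1 in 24 samples by limma (1 and 2 with an unadjusted p under 0.05), whereas in the 20 samples Cd3g (adjusted p = 0.0257), Cd8a (0.0097) and Cd8b1 (0.0272) were called higher. In that set 24 of the 79 were called higher, beside 19.8% of all genes. Il1rl1, Cd86 and Ccl8 are not confined to T cells, and the cells that gave these transcripts were not identified. In the comparison of T-DM1 with untreated tumors 2 of 13 TRAF and NF-κB genes were called higher, Traf1 by 0.41 and Nfkb2 by 0.41, and in the other lists none passed, beside 6.27% of all genes.

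The balance of CD8 to regulatory T cell transcripts was followed as Cd8a minus Foxp3 on the log2 scale within each sample. It ran from 0.96 (median 1.11) to 3.02 in untreated tumors, 0.75 (median 1.5) to 1.99 after trastuzumab, 0.86 (median 1.05) to 1.31 after T-DM1 and 1.16 (median 1.31) to 1.90 after T-PNU. The groups overlapped, and 1 untreated sample, replicate 3, lay far above the others. T-PNU and untreated tumors differed by -0.04 (two-sided exact permutation p = 0.965, the smallest p this design allows being 0.00216). T-PNU exceeded T-DM1 by 0.34 (exact p = 0.0325), which over 6 comparisons adjusted to 0.149. T-DM1 was below trastuzumab by -0.41 (exact p = 0.0498, adjusted 0.149), and in the 20 samples by -0.60 (exact p = 0.00476, the smallest that 6 against 4 samples can give, adjusted 0.0286). That set leaves out trastuzumab replicate 6, the lowest trastuzumab sample (0.75), and replicate 1 (1.45). Without them the trastuzumab mean was 1.67 in place of 1.48, so this result turned on the choice of samples. No change in their balance after T-PNU was detected against untreated tumors at this number of mice.

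**Figure D5:**
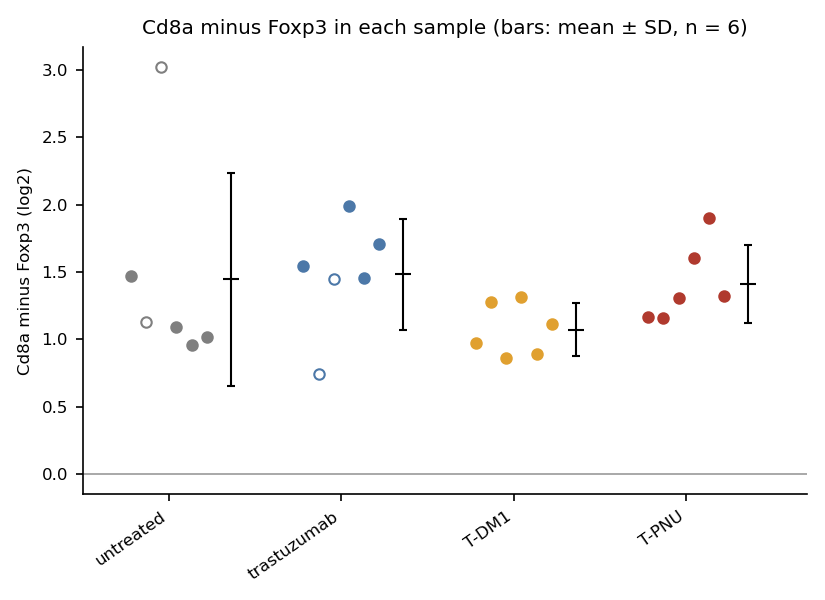
Cd8a minus Foxp3 (log2 difference, vertical axis) in each of 24 samples by group, with the mean ± SD of 6 samples and with untreated replicates 2 and 3 and trastuzumab replicates 1 and 6 as open circles. The T-PNU samples lie between 1.16 and 1.90, within the range of the untreated samples, whose highest value is 3.02.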

How the data were processed

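RNA-seq had been performed on CD45-positive tumor cells from 24 mice with a stranded mRNA kit. Per the study's methods the authors mapped reads with STAR 2.4.2a, counted them with featureCounts from Subread 1.5.0, removed genes averaging under 5 counts and tested with DESeq2. The deposited values are log2-scale normalized expression for 16996 genes. The transformation is not given in the sources used here, and low values appear compressed, so differences of weakly expressed genes may be understated. No counts were used, and depth per sample is unknown.

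The 6 group comparisons were fitted across all genes with limma 3.58.1 (R 4.3.3, empirical Bayes with trend, all 4 groups in 1 fit), with Benjamini-Hochberg adjustment and a threshold of 0.05. The pan-T level, and Ptprc, were added as covariates. Fits with Ptprc, and with the pan-T level beyond T-PNU against untreated tumors, were chosen after seeing the data. Single values were compared by exact permutation. The fit was tested on simulated data. Members and gene lists were chosen with earlier results of these data known. All 10 genes were named; of other lists, extremes between T-PNU and untreated tumors and genes past the threshold in any comparison; and the 5 genes most like Foxp3 and Il2ra. The values of 2 genes that this rule or the pan-T level includes are not reported here. Of the listed genes, Cd70, Il2, Traf5, Klra4 and Klra8 had no value. Alternatives were quantile normalization, sample weights, no trend, 2-group fits, genes above the median level, the study's thresholds (adjusted p under 0.01 and a fold change above 2), 20 samples and leaving out each sample. Figures were drawn with matplotlib 3.10.9.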

Additional observations from a re-analysis of the deposited data

Results flagged for a closer look

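In 3 of 48 groups of 6 samples the highest sample stood apart from the rest by Dixon's criterion for 6 samples, which chance alone gives in about 1 in 20 groups. All 3 were untreated samples. Ikzf2 was 9.53 in untreated replicate 2, where the next untreated sample was at 8.93. Cd40lg was 7.53 in the same sample, where the next was at 4.96. Cd8a minus Foxp3 was 3.02 in untreated replicate 3, where the next was at 1.47. Both samples are among the 4 that the study's heatmaps do not label.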

How the results depend on the processing

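The choice of samples changed the counts most. With the 20 samples of the heatmaps the genes called among the 10 were 9 against untreated tumors and 8 against trastuzumab, in place of 0 and 0. Of all genes, 15.3% and 14.6% were called higher in those fits. Against T-DM1 the count of 3 became 0 under an adjusted p under 0.01 with a fold change above 2, 0 with Ptprc as a covariate, 0 with Ptprc and the pan-T level, and between 1 and 4 when each sample was left out. Between T-DM1 and untreated tumors it became 1 with the pan-T level and 1 with Ptprc as a covariate (Tnfrsf18 in both). Of all genes, 18.3% passed in the first of these fits and 1443 of 16996 in the second. At an equal pan-T level T-PNU against untreated tumors gave 1 with sample weights, and 0 to 1 when samples were left out, in each case Tnfrsf9 (0.22, adjusted p = 0.0324, with weights, and 0.23, adjusted p = 0.0371, without untreated replicate 3). Quantile normalization, 2-group fits, sample weights and no trend each gave 4 genes against T-DM1. The shares of all genes under these fits, and under the weighted and leave-one-out fits above, are not given here. Cd8a minus Foxp3 between T-PNU and untreated tumors, -0.04 in 24 samples, was 0.28 in the 20 samples, 0.086 with Cd8b1 for Cd8a, 0.44 with Il2ra for Foxp3, and -0.14 to 0.28 when samples were left out. 

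Small differences that had not passed changed sign. In the 20 samples T-DM1 against untreated became 0.050 for Ccr8 and 0.23 for Icos, trastuzumab against untreated -0.030 for Ikzf2, and T-DM1 against trastuzumab 0.40 for Foxp3, 0.48 for Tnfrsf18, 0.34 for Tnfrsf4 and 0.092 for Icos. When each sample was left out in turn, the following differences spanned 0. T-PNU against trastuzumab ran from -0.020 to 0.064 for Tnfrsf9. T-PNU against T-DM1 ran from -0.042 to 0.022 for Tnfrsf9. T-DM1 against untreated ran from -0.16 to 0.058 for Ccr8, -0.074 to 0.35 for Tnfrsf4, -0.084 to 0.63 for Cd27, -0.47 to 0.0018 for Icos and -0.044 to 0.67 for Cd40lg. Trastuzumab against untreated ran from -0.044 to 0.17 for Ikzf2, -0.0095 to 0.20 for Il2ra, -0.14 to 0.60 for Cd27, -0.14 to 0.32 for Icos and -0.32 to 0.46 for Cd40lg. T-DM1 against trastuzumab ran from -0.29 to 0.12 for Foxp3, -0.23 to 0.22 for Tnfrsf18, -0.28 to 0.092 for Tnfrsf4, -0.0057 to 0.078 for Tnfrsf9, -0.27 to 0.36 for Cd27 and -0.0054 to 0.49 for Cd40lg. The causes were not tested. No paired analysis was possible because each group was a separate cohort of mice, and the replicate numbers used here follow accession order. The number of mice, 6 a group, and the wide spread of the pan-T level limit what could be detected, and without counts the counting error of each value is unknown.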
